A study of Caenorhabditis elegans with 2 samples.

Results

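The genes described here are among those whose products build the nuclear pore or carry cargo through it. They are the protein-coding genes of Caenorhabditis elegans whose name starts with npp-, imb-, ima-, xpo- or ran-, of which the Ensembl 115 annotation of the WBcel235 genome holds 40, out of 19973 protein-coding genes on the nuclear chromosomes. Of these, 26 are nucleoporin genes with an npp- name and 14 are importin, exportin and Ran-cycle genes. They were chosen by name after peaks of the same data had been seen at several of them, so the number of them with a peak is a description and no test was made of it. The measurement was chromatin immunoprecipitation sequencing (ChIP-seq) of ZIP-5, a basic leucine zipper transcription factor, with an antibody against GFP in late embryos taken 4 hours after synchronization. Both biological replicates form 1 group of hermaphrodites of strain OP544 and there was no comparison between groups. All animals carried the unc-119(tm4063) mutation on chromosome III and the transgene wgIs544, which supplies ZIP-5 with a GFP and FLAG tag at its C-terminal end, so the peaks are those of a tagged copy in 1 transgenic strain. Chromatin came from the whole organism, so a peak does not say in which cells the protein was bound, and no gene expression was measured.

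Nuclear pores are large channels in the nuclear envelope, built from nucleoporins. An outer ring called the Y complex and an inner ring form the scaffold, membrane nucleoporins anchor it, and nucleoporins with phenylalanine-glycine repeats fill the channel and line its cytoplasmic filaments and nuclear basket. Importin alpha binds the nuclear localization signal of a cargo and importin beta takes the pair through the pore. Exportins carry cargo out, and the small GTPase Ran, loaded with GTP at chromatin by its exchange factor, sets the direction of both. In the embryos of this worm the pores are taken apart and rebuilt when cells divide.

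ZIP-5 peaks of the most stringent list, the optimal set, lay at the promoters of 8 of the 40 genes (20%), against 3.29% of the other 19933 protein-coding genes. The share over all 19973 genes was 3.32%. A gene was counted where the summit of a peak lay in its promoter window, which began 1000 bp before the outermost annotated start and ended 200 bp after it. The 8 genes were npp-6, npp-8, npp-13, npp-1, npp-12, ima-1, ima-3 and ran-3. They were 1 of 8 Y complex genes, 2 of 4 inner ring genes, 1 of 3 central channel genes, 1 of 3 pore membrane genes, 2 of 3 importin alpha genes and 1 of 5 Ran-cycle genes. None of the 6 genes for filaments and basket, of the 3 importin beta genes, of the 3 exportin genes or of the 2 npp- genes without an assigned role had one. The optimal set is what the irreproducible discovery rate (IDR) procedure kept, which scores how well peak ranks agree between replicates. It held 746 peaks, 16 of them on the mitochondrial genome, and 457 had a summit in at least 1 promoter window.

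The genome sequence around 5 of the 8 summits is shown. The summit sequence was not used in choosing the genes. The stretches at npp-6, npp-12 and npp-13 are not shown, so the 5 do not stand for all 8. Each stretch is WBcel235 reference sequence, read 5′ to 3′ on the strand of the named gene and reaching 75 bp to each side of the summit, cut short where an annotated exon begins. For ima-1 it is chrV:11239332-11239422 on the plus strand with the summit at base 16, for npp-8 chrIV:1595946-1596096 on the minus strand with the summit at base 76, and for ran-3 chrII:8325309-8325385 on the minus strand with the summit at base 2. For npp-1 it is chrIV:9858238-9858388 on the plus strand and for ima-3 chrIV:7561956-7562106 on the minus strand, both with the summit at base 76. Capitals mark matches, on either strand, to the short words counted next, and matches beyond the stretch shown are not drawn.
ima-1: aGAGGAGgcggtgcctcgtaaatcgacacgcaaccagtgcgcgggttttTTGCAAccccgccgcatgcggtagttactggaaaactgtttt
npp-8: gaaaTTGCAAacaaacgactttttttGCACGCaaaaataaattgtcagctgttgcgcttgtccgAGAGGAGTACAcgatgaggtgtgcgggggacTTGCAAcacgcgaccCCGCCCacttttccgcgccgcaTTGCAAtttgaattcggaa
ran-3: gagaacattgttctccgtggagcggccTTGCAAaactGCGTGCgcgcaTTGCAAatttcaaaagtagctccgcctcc
npp-1: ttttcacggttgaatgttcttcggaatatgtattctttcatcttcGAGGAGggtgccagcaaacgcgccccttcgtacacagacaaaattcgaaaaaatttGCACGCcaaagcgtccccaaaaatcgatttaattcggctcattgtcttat
ima-3: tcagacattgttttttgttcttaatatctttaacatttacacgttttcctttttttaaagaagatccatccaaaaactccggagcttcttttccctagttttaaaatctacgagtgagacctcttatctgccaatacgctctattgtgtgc

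Most of these summits lacked the short sequences that were searched for. The 8 listed words were CTAGGCCA, ACTCCTCT, GGAGTACA, GGGTTCGA, TTGCGCAA and TGACGTCA with the shorter GGGCGG and the shorter TGATAA, all searched on both strands within 100 bp of each summit. Of the 8 peaks, 2 held any of them, at npp-8 and npp-13, against 221 of the 449 other promoter peaks (49.2%). CTAGGCCA stood at 1 of the 8 peaks, against 17.4% of the other promoter peaks, and was found in 1 of the 40 promoter windows (2.5%), against 3.48% of the windows of all genes. That peak was the one at npp-13, which had 2 copies, centred 16 bp before and 4 bp after the summit. The npp-8 summit held the run AGAGGAGTACA, in which GGAGTACA overlaps the reverse complement of ACTCCTCT, centred 4 and 7 bp before the summit. ACTCCTCT was found at 9.35% and GGAGTACA at 8.91% of the other promoter peaks. The same peak had GGGCGG 38 bp after the summit, a word found at 13.1% of the other promoter peaks and in 19.2% of all promoter windows. GGGTTCGA, TTGCGCAA and TGACGTCA were at none of the 8 peaks, and at 4.01%, 2.45% and 0.891% of the other promoter peaks in that order. Nor was TGATAA, which was at 9.58% of the others. TGATAA was in 24 of the 40 promoter windows, against 72.0% of all windows.

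After these sequences had been read, 3 further words were counted in the same way, one of them TTGCAA, another the word GCACGC and the last the word CTCCTC. That last word lies inside ACTCCTCT, so the match at npp-8 is the same site. TTGCAA was within 100 bp of 4 of the 8 summits (npp-12, ima-1, npp-8 and ran-3), against 20.5% of the other promoter peaks. Its copies were 3 at npp-8 and 2 at ran-3. GCACGC was at 4 summits, those of ima-1, npp-8, ran-3 and npp-1, against 12% of the other promoter peaks. The same 4 summits held CTCCTC, against 18% of the other promoter peaks. All 4 are among the stretches shown above, while the npp-13 stretch, with CTAGGCCA and none of the added words, is not. Over whole promoter windows TTGCAA was in 50% of those of the 40 genes, against 48.4% of all windows. GCACGC was in 35.0% of them, against 13.5%, and CTCCTC in 50%, against 36.5%. Because these words were picked from the same 8 peaks, their counts there describe the choice. The 40 windows include those of the same 8 genes, so the window shares are not independent of that choice. Genes without an optimal summit made up 10 of the 14 windows with GCACGC, 14 of the 20 with CTCCTC and 15 of the 20 with TTGCAA. A match is a run of letters and does not show which protein was bound.

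The 8 peaks ranked from 39 to 688 of the 746 peaks of the optimal set. The strength of a peak is given by the signal value of the authors' lists, a score with no stated scale that is comparable only within a list. The 8 signals ran from 100.7 to 461.8 with a median of 176.2, against a median of 167.8 and a range of 95.2 to 2499 for the 449 other promoter peaks. The 2 lists called on single replicates and the list called on both alignments are relaxed lists that hold background as well as peaks. Each entry also has a deposited −log10 q-value, which is lower for a less certain entry. In the optimal set it was 1.908 for ima-3, the lowest of the 8, and at most 2.294 among them. Each of the 8 peaks had the same signal and rank in the list called on both alignments as in the optimal set. A place in the optimal set does not say that the 2 replicate ranks of a single peak were close.

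**Figure D1:**
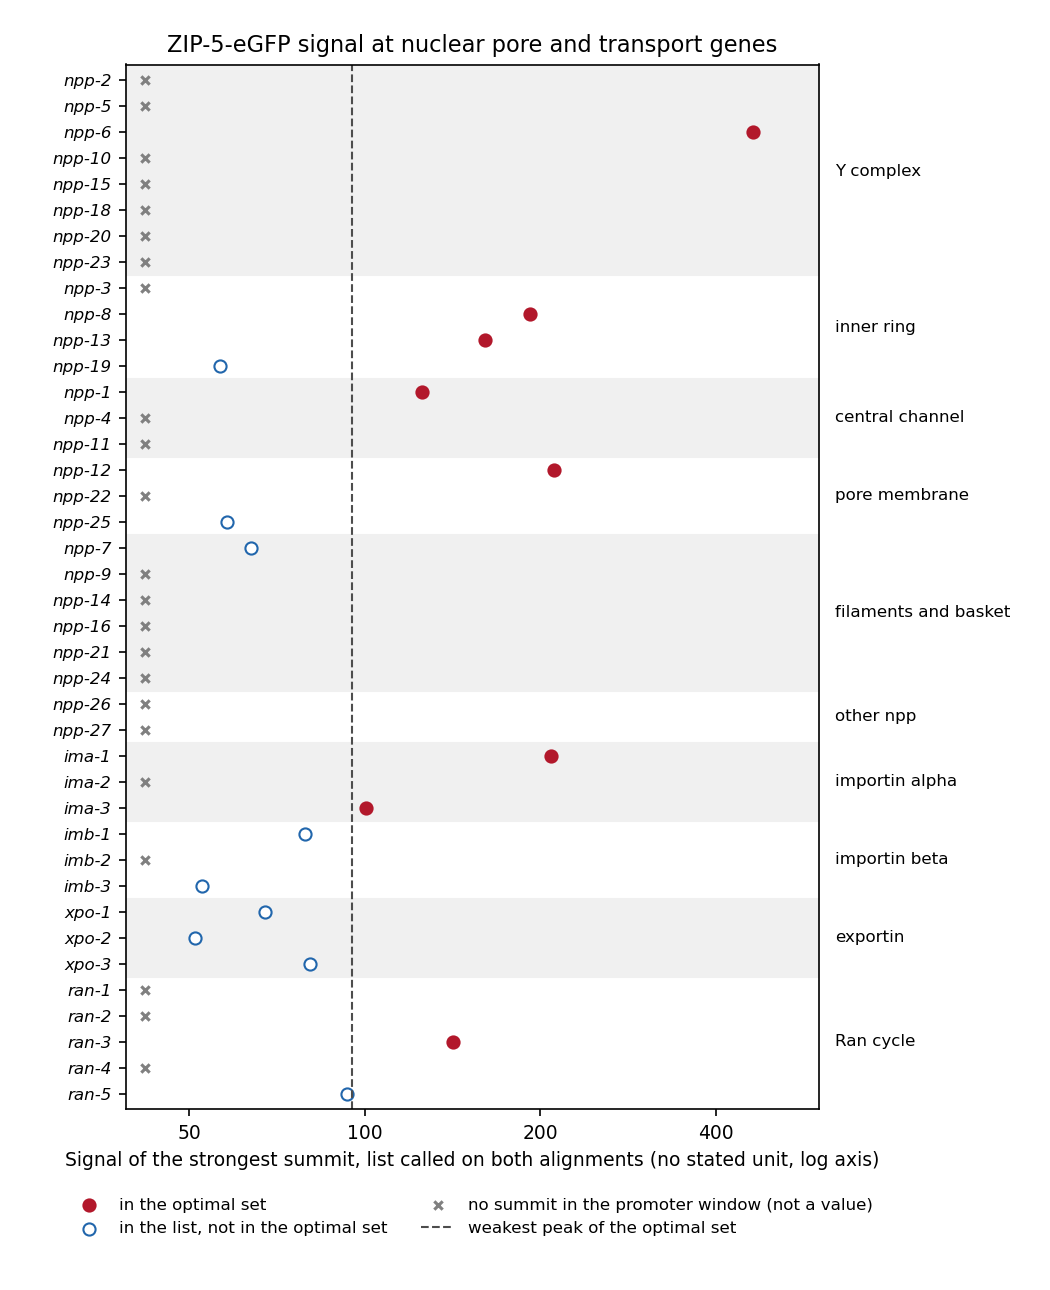
Signal of the strongest summit in the promoter window of each nuclear pore and nuclear transport gene that has one in the list called on both alignments (log axis), grouped by role, with peaks of the optimal set drawn apart from those outside it. The 8 optimal peaks lie between 100.7 (ima-3) and 461.8 (npp-6), and the 9 others between 51.3 (xpo-2) and 93.3 (ran-5).

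Among the scaffold genes, npp-6 (WBGene00003792), the Nup160 subunit of the Y complex, had the strongest peak. It lay at chrI:5176292-5176579 with a signal of 461.8, rank 39 of 746. The signal was 214.0 in the list of replicate 1, where it ranked 48, and 235.8 in that of replicate 2, where it ranked 33. Both replicates and the optimal set had the summit at the same base, 398 bp upstream of npp-6. That base is inside an intron of spd-5, a centrosome scaffold gene on the opposite strand, 223 bp downstream of the start of spd-5. It therefore fell just outside the spd-5 window and was counted for npp-6 alone, although the start of spd-5 was the nearer one. Of the other promoter peaks, 5.79% were stronger.

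The inner ring had 2 of its 4 genes in the optimal set. The peak of npp-8 (WBGene00003794), the Nup155 subunit, was at chrIV:1595799-1596242 with a signal of 191.6, rank 268, and its summit 197 bp upstream of the start. Its signals were 99.8 in replicate 1 and 95.9 in replicate 2, ranks 255 and 289. The peak of npp-13 (WBGene00003799), the Nup93 subunit that links the inner ring to the channel, was at chrI:2096880-2097323 with a signal of 160.8, rank 374, and its summit 244 bp upstream. Its signals were 88.2 in replicate 1 and 71.8 in replicate 2, ranks 312 and 455. Neither summit lay in the window of another gene, and the nearest other start was over 1000 bp away for both. The replicate summits stood 55 bp apart at npp-8 and 70 bp apart at npp-13. Another inner ring gene, npp-19 (Nup35), had an entry in both replicate lists and none in the optimal set, with a signal of 56.6 in the list called on both alignments. Its −log10 q-values were low, at 0.214 in replicate 1, 0.150 in replicate 2 and 0.161 in the list called on both alignments. The remaining one, npp-3 (Nup205), had no promoter summit in any list.

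In the channel, npp-1 (WBGene00003787), the Nup54 repeat nucleoporin, had a peak at chrIV:9858091-9858534 with a signal of 125.4, rank 534, and its summit 175 bp upstream, the nearest to a start among the 8. Its replicate signals were 65.8 and 63.9, ranks 490 and 553. The other central channel genes, npp-4 and npp-11, had no promoter summit in any list. Of the membrane nucleoporins, npp-12 (WBGene00003798), the gp210 homologue, had a peak at chrI:6446515-6446958 with a signal of 210.8, rank 235, and its summit 567 bp upstream, the farthest of the 8. Its replicates differed, with a signal of 137.7 and rank 137 in replicate 1 and a signal of 86.8 and rank 341 in replicate 2, and summits 75 bp apart. Among the 449 other promoter peaks, 4.45% had a larger ratio, either way, between their replicate ranks. The npp-12 summit also lay 272 bp upstream of the divergent gene T23H2.3. A second summit in the npp-12 window, 365 bp upstream, had a signal of 94.9 in the list called on both alignments and was outside the optimal set.

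Both importin alpha genes with optimal peaks had the summit more than 300 bp upstream, but the peaks differed in strength. The peak of ima-1 (WBGene00002072) was at chrV:11239125-11239568 with a signal of 208.4, rank 239, and its summit 328 bp upstream of ima-1 and 16 bp upstream of dvc-1, the divergent neighbour. Its replicate signals of 102.1 and 105.2 held ranks 248 and 249, and 98.0% of the other promoter peaks had a larger ratio of ranks. The peak of ima-3 (WBGene00002074) was at chrIV:7561809-7562252 with a signal of 100.7, rank 688, and its summit 367 bp upstream of ima-3 and in no other window. Its signal was 32.7 in replicate 1, rank 1931, and 65.1 in replicate 2, rank 537. The −log10 q-value of ima-3 was 0.351 in replicate 1 and 1.715 in replicate 2. Of the 449 other promoter peaks, 5 (1.11%) had a larger ratio of ranks, either way. The ima-3 peak thus ranked far lower in the replicate 1 list than in the replicate 2 list. It was also the member nearest to the lower limit of the optimal set, whose weakest promoter peak had a signal of 95.2. Just outside the set were the second npp-12 summit at 94.9 and the ran-5 peak at 93.3. The remaining importin alpha gene, ima-2, had no promoter summit in any list.

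In the Ran cycle, ran-3 (WBGene00004304), which encodes the RCC1 exchange factor that loads Ran with GTP, had a peak at chrII:8325162-8325605 with a signal of 141.5, rank 449. Its replicate signals were 68.3 and 72.2, ranks 471 and 451, with summits 22 bp apart. The summit lay 332 bp upstream of ran-3 and 2 bp upstream of the divergent gene C26D10.3. The gene ran-5 had a signal of 93.3 in the list called on both alignments, with 37.1 in replicate 1 and 61.4 in replicate 2. Its summit in that list was inside an exon of R12C12.6. That of replicate 1 was between the protein-coding genes and over the non-coding RNA gene R12C12.13. Both lay in the window of R12C12.6 and nearer to its start than to that of ran-5. The gene for Ran itself, ran-1, had a summit in the replicate 1 list with a signal of 25.4, rank 5068 of 6253. It lay 521 bp upstream of ran-1 and 180 bp upstream of dkc-1. The genes ran-2, for the protein that activates the GTPase, and ran-4, for the carrier that returns Ran to the nucleus, had none.

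**Figure D2:**
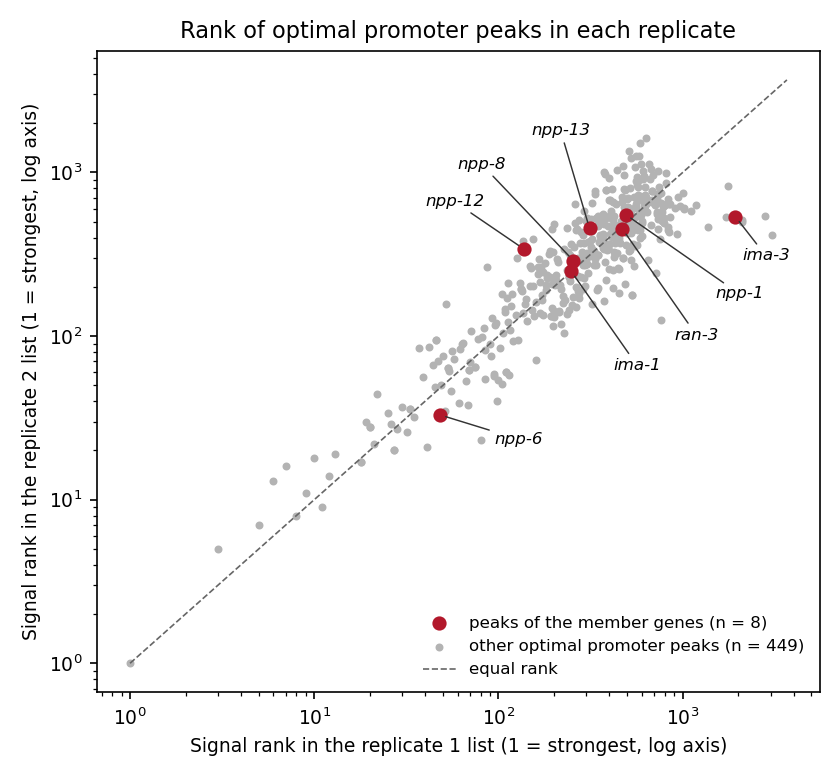
Signal rank in the replicate 1 list (horizontal) against signal rank in the replicate 2 list (vertical), both on log axes with 1 the strongest, for the 8 optimal peaks at the nuclear pore and nuclear transport genes and the 449 other optimal promoter peaks. The peak of ima-1 (ranks 248 and 249) sits on the line of equal rank, while that of ima-3 (ranks 1931 and 537) lies far below it.

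Every one of the 8 peaks had an overlapping entry in both replicate lists, as did the 449 other promoter peaks. The replicate summits were a median of 34.5 bp apart (0 to 75), against 20 bp (0 to 332). The summits were a median of 330 bp upstream of the start of the nuclear pore or transport gene (175 to 567). Measured from the nearest start whose window held the summit, neighbours included, the median was 220.5 bp upstream, against 201 bp for the other promoter peaks. None of the 8 lay within 100 bp of a tRNA or snoRNA gene, against 37 of the others. The median GC content within 100 bp of the summit was 38.6% (36.8 to 48.3), against 39.3%.

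Below the optimal set, exportin and importin beta genes had weaker entries. In the list called on both alignments, which held 4380 peaks, 17 of the 40 genes (42.5%) had a promoter summit, with a share of 10.8% over all genes. These were 8 of 26 nucleoporin genes and 9 of 14 transport factor genes, against 5 and 3 in the optimal set. All 3 exportin genes and 2 of 3 importin beta genes were among them, and none of those 5 was in the optimal set. The −log10 q-values of those 5 in that list were 1.155 (xpo-3), 1.052 (imb-1), 0.521 (xpo-1), 0.081 (imb-3) and 0.053 (xpo-2). Those of the 8 optimal peaks were all higher. Weak entries of the relaxed lists cannot be told apart from background. In the list of replicate 1, with 6253 peaks, 21 of the 40 genes (52.5%) had a summit, with 12.6% over all genes. In the list of replicate 2, with 6945 peaks, 17 (42.5%) had one, with 13.6% over all genes. A summit in both replicate lists was found for 15 (37.5%), with 7.36% over all genes, and a summit in either for 23 (57.5%), with 18.8%. In each list the share of the 40 genes was above that of all genes, which is the pattern they were chosen on.

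**Figure D3:**
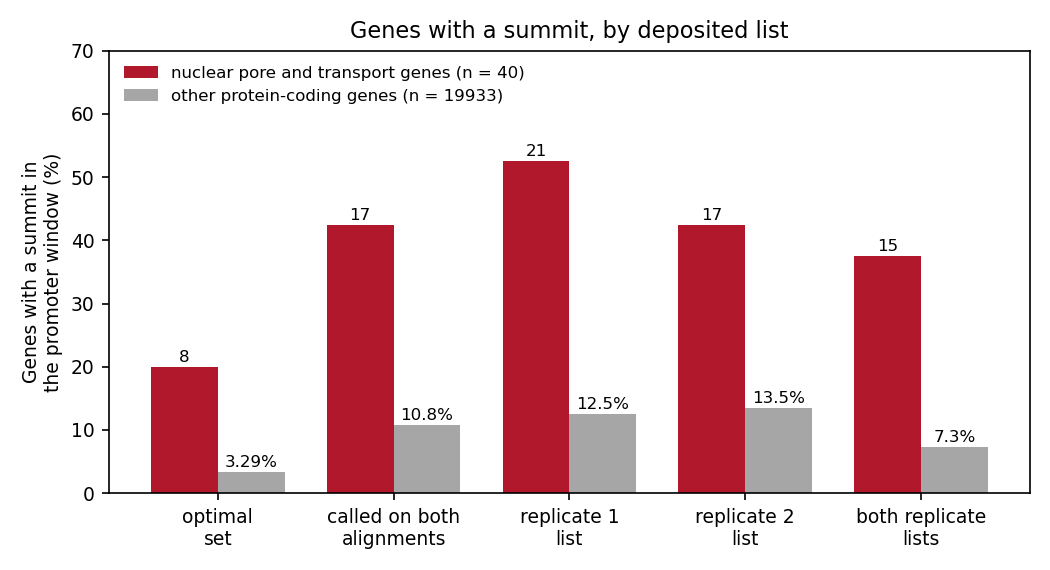
Percentage of genes with a summit in the promoter window in each list, for the 40 nuclear pore and nuclear transport genes and for the other 19933 protein-coding genes. The values run from 20% against 3.29% in the optimal set to 52.5% against 12.5% in the replicate 1 list.

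Among the exportins, xpo-3, the tRNA exportin, had a signal of 80.6 in the list called on both alignments, with 39.7 in replicate 1 and 40.5 in replicate 2. Its summit was 163 bp upstream, lay over the non-coding RNA gene C49H3.14 and was shared with the divergent gene C49H3.3. The gene xpo-1, for the CRM1 exportin of cargo with a nuclear export signal, had a signal of 67.4, with 32.2 and 36.3 in the replicates. Its summit was 793 bp upstream of xpo-1 and 63 bp upstream of uvs-1. The gene xpo-2, for the exportin that returns importin alpha to the cytoplasm, had a signal of 51.3 and was in the replicate 2 list alone, with 30.2. It was the weakest of the 17.

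Of the importin beta genes, imb-1, the importin beta that pairs with importin alpha, had a signal of 79.0 in the list called on both alignments, with 40.8 in the list of replicate 1, rank 1004 of 6253, and 40.4 in that of replicate 2, rank 1305 of 6945. Its summit was 115 bp upstream and 34 bp upstream of the divergent mfsd-13.1. The gene imb-3 had a signal of 52.7 and was in the replicate 1 list alone, with 38.9, while imb-2, for the transportin, was in none but the replicate 1 list, with 25.1 and a summit in an exon of tebp-1. Among the nucleoporins, npp-7 (Nup153, of the basket) had a signal of 63.9, with 30.9 and 39.9 in the replicates, and its summit was nearer to unc-40, at 128 bp, than to npp-7, at 633 bp. The membrane nucleoporin gene npp-25 had a signal of 58.1, with 25 and 38.3 in the replicates, and was shared with mrps-10. The inner ring gene npp-19 had 30.2 and 30.8 in the replicates and shared its summit with no gene. In the list called on both alignments the −log10 q-values were 0.3765 for npp-7, 0.2041 for npp-25 and 0.1608 for npp-19. Outside these, npp-9, npp-14 and npp-23 had a summit in the replicate 1 list alone and npp-15 in the replicate 2 list alone, with signals of 25 to 29.7. The npp-14 summit was nearer to cel-1 (107 bp against 229 bp) and that of npp-15 to C29E4.13 (132 bp against 194 bp). The summits of npp-9, shared with F59A2.5 and golg-4, and of npp-23 were nearest to their own gene.

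No promoter summit in any of the lists was found for 17 of the 40 genes. They were 5 Y complex genes (npp-2, npp-5, npp-10, npp-18 and npp-20), npp-3, npp-4, npp-11, npp-22, npp-16, npp-21, npp-24, npp-26, npp-27, ima-2, ran-2 and ran-4. These were 14 of the 26 nucleoporin genes and 3 of the 14 transport factor genes. The other 23 of the 40 genes (57.5%) had a summit in at least 1 replicate list, with 18.8% over all genes. For the 32 genes without an optimal promoter summit, the nearest optimal summit was 1645 to 114443 bp from the start, with a median of 36151.5 bp, and none had one in its gene body. It was within 5000 bp for 2 of them. Those were npp-4, whose nearest summit (signal 110.8) was 1645 bp upstream and in the window of Y54E5A.5, and npp-18, whose nearest summit (signal 148.9) was 3669 bp upstream and in the window of set-25, a histone methyltransferase gene. In the list called on both alignments, 4 of the 40 genes had a summit inside the gene body, npp-3, npp-4 and imb-1 among them. The share over all genes was not counted. The lists record peaks and not the absence of binding, and their depth is unknown.

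Many of these summits also lay in the promoter window of a neighbour. In the optimal set 3 of the 8 peaks (37.5%) had a summit that also lay in the window of another protein-coding gene, those of npp-12, ima-1 and ran-3, against 215 of the 449 other promoter peaks (47.9%). In each of these 3 the summit was nearer to the neighbour's start. Where each summit was given only to the nearest start, 4 of the 40 genes (npp-8, npp-13, npp-1 and ima-3) remained in the optimal set, with 2.2% over all genes, and npp-6 was lost to spd-5. In the list called on both alignments 10 of the 17 were shared, and 7 of the 9 that were outside the optimal set. With the nearest start alone, 8 of the 40 genes had a summit in that list, with 8.12% over all genes, and no exportin gene was among the 8.

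**Figure D4:**
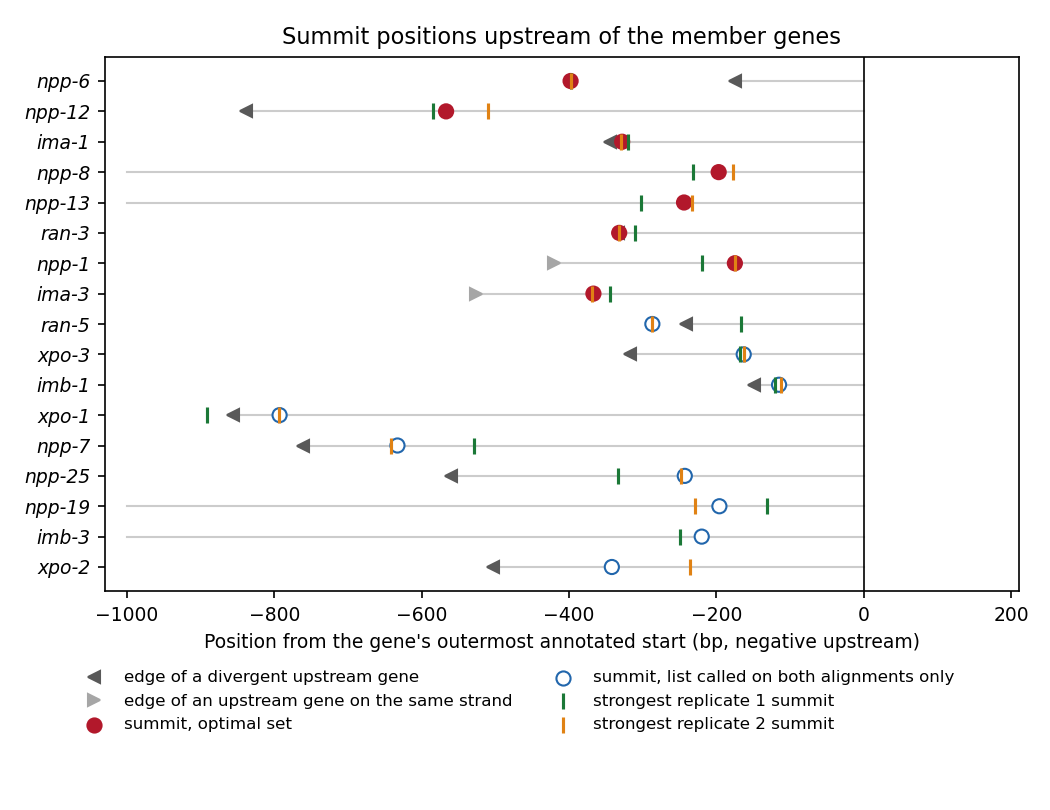
Distance in bp from the member's outermost start to the strongest summit of the list called on both alignments for the 17 nuclear pore and nuclear transport genes that have one, with the nearest edge of the upstream gene as an arrowhead and the strongest summit of each replicate list as a tick. Optimal summits lie 175 bp (npp-1) to 567 bp (npp-12) upstream, and the summits of npp-6 and ran-5 fall inside the upstream gene.

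The promoters of these genes often face another gene. A neighbour on the opposite strand lay upstream of 29 of the 40 genes (72.5%), at a median gap of 596 bp for those 29, against 9070 of 19968 protein-coding genes (45.4%), at a median gap of 1550.0 bp for those 9070. The share was 6 of the 8 genes with an optimal peak (75%) and 23 of the 32 without one (71.9%). Among all genes with an optimal summit it was 486 of 664 (73.2%). Within the class with a divergent neighbour no more than 1000 bp away, 4 of 20 of these genes had an optimal summit, against 9.97% of 3502 genes, and 11 of 20 had a summit in the list called on both alignments, against 23.9%. With a divergent neighbour farther away it was 2 of 9, against 2.46% of 5568. With a neighbour on the same strand within 1000 bp it was 2 of 9, against 2.16% of 5695, and with a more distant one 0 of 2, against 1.06% of 5203. The part of this arrangement in the peak counts was not tested.

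By chromosome, the peaks of the optimal set were at 3 of 13 of these genes on chromosome I, against 4.79% of all genes there, and at 1 of 8 on II, against 3.51%. They were at 0 of 8 on III, against 5.23%, at 3 of 8 on IV, against 3.29%, and at 1 of 3 on V, against 2.5%. In 2 places these genes are neighbours of each other. The gene imb-3 lies downstream of xpo-2 on chromosome I, and each had a different weak summit in the list called on both alignments. The xpo-2 summit was shared with the divergent gene nol-14, and lay 161 bp upstream of nol-14 and 342 bp upstream of xpo-2. The gene ran-2 lies 479 bp downstream of npp-15 on chromosome III, and neither had a summit in that list.

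Other genes of nuclear transport and the nuclear envelope were read from a list of 38, of which 37 had a match in the annotation. In the optimal set 2 of the 37 (5.41%) had a promoter summit, beside 3.32% of all genes. One was lem-2, for a protein of the inner nuclear membrane that binds the chromatin protein BAF, with a peak at chrII:14063034-14063437, a signal of 512.2 (rank 30) and a summit 210 bp upstream. Its replicate signals were 250.8 and 264.6. The other was thoc-5, for a subunit of the THO complex of mRNA export, with a peak at chrIII:5349210-5349653, a signal of 214.3 (rank 230) and a summit 31 bp upstream. Its replicate signals were 103.5 and 111.2. Neither was shared. In the list called on both alignments 12 of the 37 (32.4%) had a summit, beside 10.8% of all genes. These were 7 of 14 mRNA export genes (50%), 3 of 5 SUMO genes (60%) and 2 of 17 envelope and lamina genes (11.8%). The nucleoporin gene mel-28, which bears no npp- name, had none in any list, nor did lmn-1, which encodes the lamin. Of nucleoporin genes without an npp- name, mel-28 was the only one read, so it does not stand for others. The gene rae-1, named after the nucleoporin and mRNA export factor Rae1, was in neither set of genes. It had an optimal promoter peak with a signal of 355.3, and 196.8 and 159.9 in the replicates. That peak was counted among the other promoter peaks. The list of 38 genes too was drawn up with earlier results of these data known.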

How the data were processed

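Per the labels, 2 biological replicates of a GFP immunoprecipitation were sonicated and sequenced. The authors deposited peak lists on ce11, whose coordinates are those of WBcel235: 1 per replicate and 1 on both alignments, each called with a control, and the optimal IDR set derived from these 3. For the aligner, the peak caller and the IDR cutoff, no name or value is given in the sources used here. Lists on another build and control libraries were left unused. The deposited signal value per peak has no stated scale and was ranked within a list, with ties broken by the deposited −log10 q-value. Summits come from the offset the authors' lists give. The lists hold no read counts, so depth is unknown. No sample from animals without the tag was used here.

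Summits were placed in promoter windows of Ensembl 115 genes with python 3.11.15, pandas 2.3.3 and numpy 2.4.6, and a summit counted for every gene whose window held it. Trans-splicing is common in this worm, and transcription may begin upstream of an annotated start. Coordinates count from 1. A replicate peak was matched to an optimal peak as the strongest entry overlapping it. The placement code was tested on simulated peaks. The genes and lists were chosen with earlier results of these data known, and no test was made on them. Named were all members with an optimal summit, those in both replicate lists, those in the list on both alignments, the rest by name and count, list genes with an optimal summit, and genes sharing a member peak. Alternatives changed the window, the start, the assignment of a summit, the peak set and the replicates used. Words added after the sequences were seen are named as such.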

Additional observations from a re-analysis of the deposited data

How the results depend on the processing

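The count of 8 genes with an optimal promoter summit stayed within 1.5 times of that value under windows of 500 bp (7, without npp-12) and 2000 bp (9, with npp-4), under any annotated start, any overlap of at least 1 bp, and without peaks near tRNA or snoRNA genes (8 each). Giving each summit to the nearest start alone left 4 genes in the optimal set, 8 in the list called on both alignments, against 17, and 6 in both replicate lists, against 15. That rule takes away summits nearer to a neighbour. In the stronger 50% of the optimal set 4 genes remained (npp-6, npp-8, npp-12 and ima-1), with a median signal of 209.6, a median position of -363 bp and 0 with CTAGGCCA, since npp-13 drops out. With 1 replicate's list cut to the size of the optimal set, the count was 7 to 9, without ima-3 when replicate 2 was left out and with ran-5 when replicate 1 was. The median signal was then 72.2 to 94.0, on the scale of a single replicate's list, the median position -330 to -315 bp, the shared peaks 4 to 4, the CTAGGCCA count 1 to 1 and the listed envelope and transport genes 2 to 2. Shared peaks were 5 with the 2000 bp window, against 3. Of the single-gene signals, 48 stayed the same and 3 were lost with the 500 bp window, those of xpo-1, npp-7 and the farther npp-12 summit. The 2000 bp window and any annotated start cannot lose a summit, so only the 500 bp window could. These counts are therefore no measure of how stable a signal is. No paired analysis was possible because both replicates belong to 1 group. Without read counts, no interval could be given for a signal, and weak peaks of the relaxed lists cannot be told apart from background.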
